A study of Mus musculus with 20 samples.

Results

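The transcription factor binding sites described here are regulatory features of the mouse genome, each listed under an identifier beginning ENSMUSR, for which reads of total RNA were counted. The members were the sites with a mean of 5 or more counts over 19 libraries, so they were chosen by their own measured counts. No group label was used, but 12 of the 19 libraries came from cells edited at Zcchc8, so sites high in these entered more easily. This rule kept 2336 of the 20564 sites listed (11.4%), and these held 95% of all counts in sites. A further 12099 sites had no count in any library.

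The RNA came from SIMS, a cell line of mouse salivary gland, either unedited or after CRISPR/Cas9 was aimed at Zcchc8 or at Btbd7. The series was set up to learn from which regulatory features transcripts build up when ZCCHC8 is missing. The site counts covered 5 groups: 3 libraries of unedited wild-type cells, 4 of Btbd7 knockout (KO) cells, the negative control, and 4 from each of 3 Zcchc8 KO clones, called clones 1, 2 and 3. All groups were cells of the same line in the same medium, and each clone is a single edited line. The labels do not say that replicates were separate cultures, so p-values measure only the spread between these libraries.

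In the nuclear exosome targeting complex (NEXT), ZCCHC8 is the scaffold that holds together the RNA helicase MTR4 (gene Mtrex) and the RNA-binding protein RBM7. The complex passes short, mostly unspliced nuclear RNAs to the RNA exosome, which degrades them from the 3′ end. Known NEXT targets include promoter upstream transcripts (PROMPTs), which run away from active promoters, and enhancer RNAs. A transcription factor binding site is DNA bound by a regulator. RNA over such a site may come from a short transcript starting nearby or from a longer gene or neighbouring feature that covers it, and the counts do not separate these sources. The site table gives identifiers without coordinates.

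The sites were thinly covered. Counts over all sites ran from 65889 to 171317 per library, against 6833258 to 17771804 counts in genes. All 4 libraries of clone 1 were shallow (6833258 to 7683444 gene counts), and the wild-type libraries were among the deepest (13876944 to 17771804). Levels are given as CPM, site counts relative to the library's gene-table total after TMM scaling, with the SD over libraries. The TMM factors were 0.966 to 0.982 in the 7 control libraries and 1.00 to 1.03 in the 12 Zcchc8 KO libraries. Btbd7 stood at 202 ± 7.64 CPM (n = 4) in wild type and 99.2 ± 3.23 CPM (n = 4) in Btbd7 KO. Zcchc8 stood at 65.1 ± 2.92 CPM in wild type (n = 4), 60.3 ± 4.28 in clone 1, 23.3 ± 1.35 in clone 2 and 54.6 ± 4.84 in clone 3 (n = 4 each). By edgeR's quasi-likelihood test it was lower than wild type in clone 2 (log2 fold change -1.48, adjusted p = 5.19e-13) and clone 3 (-0.26, adjusted p = 0.0135) but was not called in clone 1 (-0.11, adjusted p = 0.291). Counts over the whole gene do not read the edit itself. A list of 21 other genes covers NEXT, the related PAXT connection and the exosome. Of these, 20 were tested, and in the mean of the clones 1 was called higher (Srrt, whose product ARS2 binds the nuclear cap-binding complex, at 0.49) and 9 lower, among them Dis3, an exosome nuclease, at -0.31 and Mtrex at -0.27. Over all 15297 genes tested, 16.2% were called higher and 19.9% lower. The 6 salivary epithelial markers stood at 131 to 1470 CPM in every library, but 3 of them were called lower in the mean of the clones, the keratin genes Krt7 (-0.59), Krt8 (-0.38) and Krt18 (-0.46). Their wild-type libraries were uneven, at 1140 ± 354, 749 ± 198 and 970 ± 170 CPM (n = 4). Krt8 was not called in clone 2 (-0.1). Of the other markers, Krt19 was called higher in clone 2 (0.6) and lower in clones 1 and 3 (-0.35 and -0.57). Cdh1 was called lower in clone 2 (-0.19) and higher in clone 3 (0.19). Of the 3 acinar markers, the water channel gene Aqp5 stood at 108 to 187 CPM and was called lower (-0.42), Bhlha15 reached at most 2.13 CPM and Amy1 0.613. Of the 4 fibroblast markers, the collagen gene Col1a1 stood at 8.65 to 26.6 CPM and was called higher (0.67), while Col1a2 reached at most 2.65 CPM and Pdgfra 0.744. Myoepithelial markers reached at most 1.45 CPM, and leukocyte and endothelial markers 1.02. Btbd7 KO also had Aqp5 called lower than wild type (-0.68) and Col1a1 (0.66), Col1a2 (1.81) and Krt19 (0.32) called higher. Krt7, Krt8 and Krt18 were not called there. Col1a1 was not called in clone 1 (-0.09). The part of these marker changes in the site results was not tested.

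Few sites held most of the RNA counted. The median member had a mean of 13.3 counts, and the most abundant had 6418. The 6 most abundant sites took 16.8% of all counts in members and the 100 most abundant took 49%. Abundance classes were formed by mean count. There were 899 sites with 5 to under 10 counts, 844 with 10 to under 30, 388 with 30 to under 100, and 205 with 100 or more. Those 205 sites held 61.8% of member counts, and the 899 lowest held 5.88%. At the lower limit, ENSMUSR00000492689 and ENSMUSR00000735185 had means of exactly 5 counts, and ENSMUSR00000697946 and ENSMUSR00000447747, just outside, had 4.947.

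Precision rose with abundance. The median SD of a site's CPM between libraries of a group was 51.8% to 63.8% of its mean in the lowest class and 11.1% to 13.8% in the highest. The median standard error of the log2 fold change between Zcchc8 KO and wild type fell along the classes from 0.64 through 0.41 and 0.23 to 0.14. The smallest change that passed the test was accordingly 1.78 on the log2 scale in the lowest class and 0.28 in the highest. Smaller changes of single sites with under 10 counts were not called in this comparison. Against Btbd7 KO, the smallest change called in the lowest class was 1.45.

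As chosen over all libraries, the low-abundance sites summed to a higher level in every Zcchc8 KO library than in any control library. The summed level of the 899 sites with 5 to under 10 counts was 489.3 ± 18.3 CPM in wild type (n = 3) and 454.8 ± 27.8 in Btbd7 KO (n = 4). It was 584.3 ± 37.4 CPM in clone 1, 576 ± 28.4 in clone 2 and 605.4 ± 52.5 in clone 3 (n = 4 each). The 7 control libraries ran from 432 to 500 CPM and the 12 Zcchc8 KO libraries from 537 to 675 CPM, with no overlap. The class of 10 to under 30 counts gave the same separation. Its summed level was 1022 to 1157 CPM in the controls and 1212 to 1390 CPM in the Zcchc8 KO libraries.

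The 2 higher classes did not separate the groups. Sites with 30 to under 100 counts summed to 1707 ± 16.2 CPM in wild type (n = 3), 1725 ± 46.5 in Btbd7 KO, and 1757 ± 48.5, 1790 ± 41.5 and 1785 ± 62.3 in clones 1, 2 and 3 (n = 4 each). In the class of 100 or more counts wild type stood at 5643 ± 127 CPM (n = 3), Btbd7 KO at 5790 ± 69.7, and the clones at 5530 ± 105, 5455 ± 212 and 5659 ± 222 (n = 4 each). Single libraries of controls and clones overlapped in both classes. Expressed as a share of each library's member counts, which needs no scaling to genes, the lowest class made up 4.86% to 5.65% in the controls and 5.99% to 7.31% in the Zcchc8 KO libraries. The highest class made up 62.1% to 64.5% in the controls and 58% to 62% in the Zcchc8 KO libraries, and neither share overlapped between controls and knockouts. These sums carry no test.

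The knockout libraries took part in choosing and classing these sites, so the sums were also formed in 2 other ways, added after the data were seen. Of the 899 lowest sites, 617 had a mean of 5 or more counts both in the controls and in the Zcchc8 KO libraries. These summed to 330.2 to 381.7 CPM in the controls and 390.2 to 490.3 CPM in the knockouts, still without overlap but closer together. The 823 such sites of 10 to under 30 counts summed to at most 1152 CPM in the controls and at least 1158 CPM in the knockouts.

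The other way took all rows of the table, members or not, with a mean of 5 or more counts in the 4 Btbd7 KO libraries, and classed them by that mean. Neither wild type nor the Zcchc8 KO libraries entered this choice. The 855 rows of the lowest class summed to 477.3 to 500 CPM in wild type and 551.5 to 669.7 CPM in the Zcchc8 KO libraries. The 797 rows of 10 to under 30 counts summed to 1036 to 1103 CPM in wild type and 1128 to 1291 CPM in the knockouts. In both classes every knockout library lay above every wild-type library. The 356 rows of 30 to under 100 counts (1513 to 1539 against 1511 to 1689 CPM) and the 229 of 100 or more (5654 to 5918 against 5361 to 5929 CPM) overlapped.

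**Figure D1:**
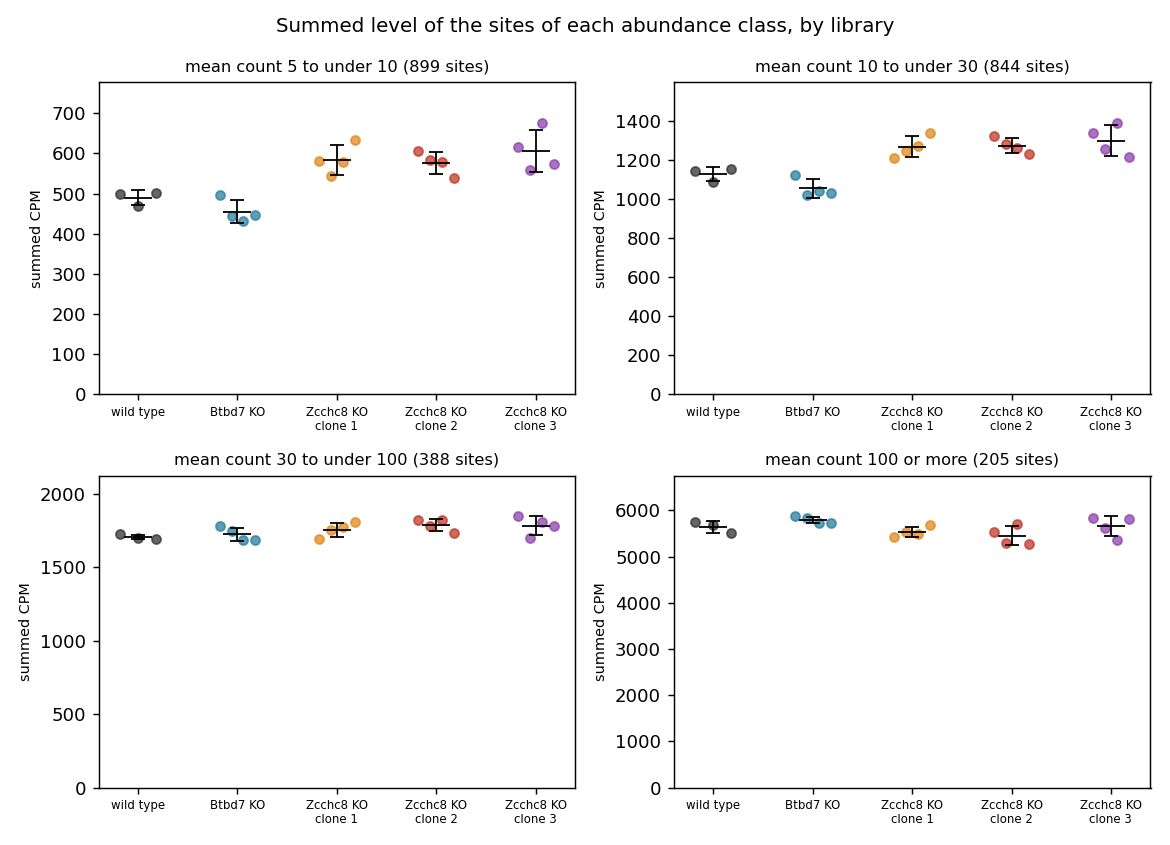
Summed CPM of the sites in each abundance class (y axis, from 0), with 1 point per library in 5 groups (x axis), the group mean as a bar and the SD as whiskers. In the 2 lower classes every Zcchc8 KO library lies above every control library, and in the 2 higher classes they overlap.

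The sites below the limit of 5 counts were also higher in the clones. Their 6129 rows with at least 1 count summed to 379 to 417 CPM in wild type, 362 to 427 in Btbd7 KO, and 505 to 682, 502 to 564 and 526 to 636 in clones 1, 2 and 3. When every library was thinned to the gene count of the shallowest, 2145 to 2233 of the 2336 members held a count in a control library and 2204 to 2309 in a Zcchc8 KO library, so these ranges overlapped.

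Single sites were tested against wild type with edgeR's quasi-likelihood test over all 2494 sites that passed its filter on low counts, and called at a Benjamini-Hochberg adjusted p under 0.05. These 2494 included 2291 members. The 45 members not tested had means of at most 6.11 counts. For the mean of the 3 clones, 149 sites were called higher (5.97% of sites tested) and 36 lower (1.44%). Of the tested members, 136 were higher and 36 lower, shares of 5.94% and 1.57% that lie at this background. The median log2 fold change was 0.07 over the members and 0.09 over all sites tested. Without wild-type replicate 3, only 21 sites were called lower. Scaling within the site table lowered the median by about 0.1, from 0.09 to -0.01 over all sites tested, and gave 129 higher and 67 lower, a split of 65.8% higher against 80.5% with gene scaling.

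How a site came to be a member bears on that count. Of the 136 called higher, 59 had a mean under 5 counts in the 7 control libraries and so entered through the Zcchc8 KO libraries. There were 156 such members, and being low in the controls, they had to lie higher in the knockouts. Among the 2021 tested members with 5 or more counts on average in both sets of libraries, 77 were called higher (3.81%) and 34 lower (1.68%), with a median of 0.05. This count was added after the data were seen.

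**Figure D2:**
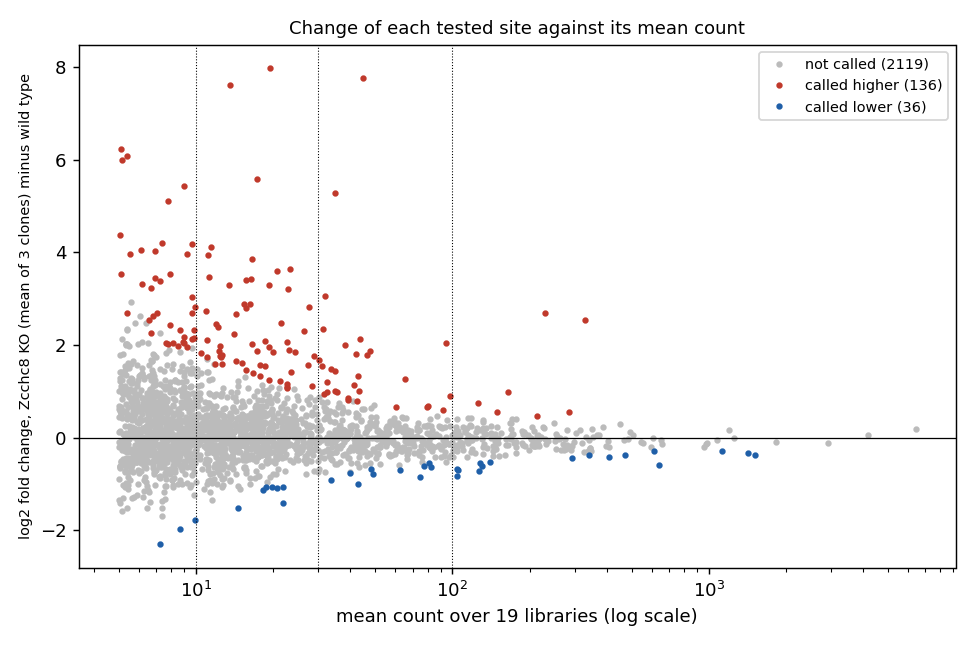
Log2 fold change of Zcchc8 KO (mean of 3 clones) minus wild type (y axis) against mean count on a log axis (x axis) for the 2291 tested members, coloured by call. The 136 sites called higher reach farthest from 0 at low counts, and dotted lines mark the class limits of 10, 30 and 100 counts.

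The direction of the calls changed along the abundance classes. In the mean of the clones, 39 of 854 tested sites with 5 to under 10 counts were higher (4.57%) and 3 lower. In the class of 10 to under 30 counts, 59 of 844 were higher (6.99%) and 7 lower, and in that of 30 to under 100, 31 of 388 were higher (7.99%) and 10 lower. Among the 205 most abundant sites the order turned, with 7 higher (3.41%) and 16 lower (7.8%). Lower calls still outnumbered higher ones there without TMM factors (14 against 11) and with scaling within the site table (30 against 6). Among members with 5 or more counts in both sets, 2, 39, 29 and 7 were higher from the lowest to the highest class. Those lower numbered 1, 7, 10 and 16, a count added after the data were seen. Nearly all of the 39 higher calls in the lowest class were thus sites that entered through the knockouts, where the direction follows from the choice.

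Median changes fell along the same order. They were 0.20, 0.10, 0.01 and -0.04 on the log2 scale from the lowest to the highest class. The signs depended on the scaling. Without TMM factors the medians were 0.25, 0.15, 0.06 and 0.01, and with scaling within the site table they were 0.10, -0.01, -0.10 and -0.14, so only the lowest class kept its sign under all 3 scalings. The fall from class to class was present under each of them. The knockouts enter the mean that sets these classes. When the members were ranked by their level in the Btbd7 KO libraries instead, the medians were 0.25, 0.09, -0.02 and -0.07. The sites ranked were then still the members, with the 156 that entered through the knockouts.

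Rows chosen and classed by the Btbd7 KO libraries alone gave medians of 0.16, 0.07, -0.02 and -0.07. Of the 711 tested rows among the 855 in the lowest of these classes, 33 were called higher and 1 lower, and of 229 in the highest, 4 were higher and 17 lower. The filter on low counts that decides which rows are tested does use the wild-type and knockout libraries. In the members with 5 or more counts in both sets, the lowest class had 2 sites higher and 1 lower out of 607 tested, with a median of 0.15, and the highest class a median of -0.04.

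Each clone showed the fall on its own, although the 3 comparisons share the same 3 wild-type libraries. Clone 1 had 133 sites called higher (5.33%) and 39 lower (1.56%), and its class medians were 0.22, 0.05, -0.03 and -0.08. In clone 2, 108 sites were called higher (4.33%) and 28 lower (1.12%), with medians of 0.23, 0.14, 0.04 and -0.03. In clone 3, 129 were higher (5.17%) and 20 lower (0.802%), with medians of 0.29, 0.15, 0.01 and -0.05. Among the most abundant sites, clones 1 and 2 had more lower than higher calls (19 against 10, and 12 against 3), whereas clone 3 had 8 lower and 12 higher. With scaling within the site table clone 3 had 71.8% of its calls higher in all, against 86.6%.

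**Figure D3:**
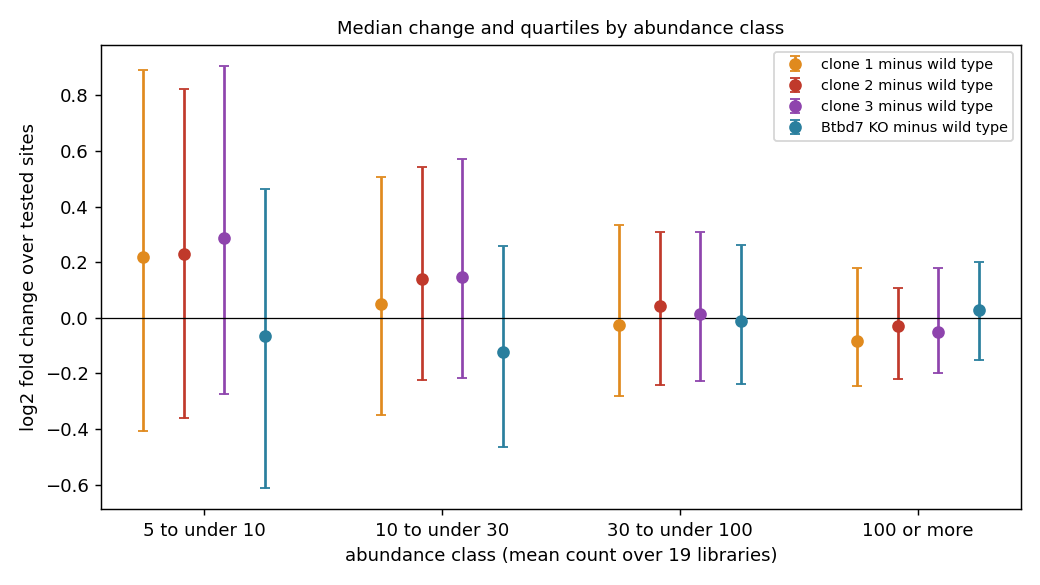
Median log2 fold change against wild type (points) with quartiles (whiskers) over the tested sites of each abundance class (x axis), for each Zcchc8 KO clone and for Btbd7 KO. The clone medians fall from between 0.22 and 0.29 in the lowest class to between -0.08 and -0.03 in the highest, and those of Btbd7 KO run from -0.12 to 0.03.

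Btbd7 KO did not show this pattern against the same wild-type libraries. Only 2 sites were called higher (0.0802%) and 3 lower (0.12%) by edgeR, while 245 of 2494 had an unadjusted p under 0.05. DESeq2 called 19, the most under any alternative, and leaving out wild-type replicate 4 gave 13. The class medians of Btbd7 KO were -0.07, -0.12, -0.01 and 0.03. With Btbd7 KO in place of wild type as the reference, the mean of the clones had 213 sites higher (8.54%) and 77 lower (3.09%), with class medians of 0.24, 0.21, 0.02 and -0.09. Under scaling within the site table this became 170 higher and 160 lower, a split of 51.5% higher against 73.4%. Among the 205 most abundant sites, 20 were higher and 37 lower than in Btbd7 KO.

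Separation of single libraries uses no model, but for members it is not free of how they were chosen. All 12 Zcchc8 KO libraries lay above all 7 control libraries at 56 of the tested sites (2.25%), of which 54 were members, and below them at 7 sites (0.281%), all members. From the lowest class to the highest, the members above numbered 14, 22, 16 and 2. The 156 members with under 5 counts in the controls had to lie higher in the knockouts. The members above were not split by this route, so their excess over those below is in part set by the choice. Of the 7 below, 2 had 30 to under 100 counts and 5 had 100 or more.

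In the mean and in every clone separately, but not in Btbd7 KO, 71 of the sites tested were called higher (2.85%) and 1 lower (0.0401%). Of the tested members, 67 were higher (2.92%), a share at this background. The mean over the controls was under 5 counts at 37 of the 67, which were members only through the knockouts, so the direction at these 37 follows from the choice. Their log2 fold changes ran from 0.90 to 7.97 with a median of 2.88. They included 17, 32, 16 and 2 sites from the lowest to the highest class. The 1 site called lower in each clone but not in Btbd7 KO was a member. Sites with a mean of 20 or more counts among these numbered 29 higher, of which the 8 with the largest fold change are described next, so their sizes are the extremes of that list. Of these 8, the first 5 had a mean under 5 counts in the controls, so their direction follows from the choice, and their p-values, from the fit over all sites, support nothing about the members as a group.

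The largest of these 29 changes was at ENSMUSR00000706649, a site almost without reads in wild type. It had 1, 0 and 0 counts in the 3 wild-type libraries and 2, 0, 5 and 9 in Btbd7 KO. Clone 1 stood at 8.92, 9.93, 9.20 and 9.67 CPM, clone 2 at 4.85, 5.97, 5.62 and 5.71, and clone 3 at 5.05, 4.14, 7.92 and 6.04. All 12 knockout values thus lay above all 7 controls, whose highest was 0.762 CPM in Btbd7 KO. The counts of Zcchc8 KO and wild type gave a ratio of 314 per unit of depth, with an exact 95% interval of 56.3 to 12400 that covers counting error only. Against Btbd7 KO the log2 fold change was 4.35 ± 0.33 (SE; adjusted p = 2.37e-19, edgeR).

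ENSMUSR00000714892 had a similar course. It stood at 0.0577, 0.148 and 0.175 CPM in wild type and at 0.120, 0.267, 0 and 0.169 in Btbd7 KO. Clone 1 reached 8.13, 6.66, 8.32 and 8 CPM, clone 2 4.43, 3.38, 3.36 and 4.39, and clone 3 5.69, 3.64, 4.85 and 4.89. Every library of clone 1 was above every library of the other clones, and all clones were far above both controls. The log2 fold change was 5.28 ± 0.42 (SE; adjusted p = 1.14e-18, edgeR), and the clones differed from each other (joint test, adjusted p = 0.0274).

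The next 5 sites stood at 1.48 CPM or less in every control library and at several CPM in the clones. ENSMUSR00000358783 averaged 0.243 CPM in wild type and 0.387 in Btbd7 KO, against 4.00, 2.62 and 3.13 in clones 1, 2 and 3 (log2 fold change 3.65 ± 0.46, SE). Clone 3 held 1 high library, replicate 4 at 5.97 CPM, beside 3 at 1.76 to 2.43. ENSMUSR00000745265 averaged 0.233 and 0.289 CPM in the controls and 2.85, 3.27 and 2.55 in the clones (3.58 ± 0.50, SE).

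ENSMUSR00000558357 had no count in 3 of the 4 Btbd7 KO libraries and 0.231 to 0.524 CPM in wild type, against clone means of 4.35, 2.91 and 2.95 CPM (log2 fold change 3.20 ± 0.44, SE). ENSMUSR00000742721 averaged 0.503 CPM in wild type, 1.06 in Btbd7 KO and 4.44, 4.38 and 3.69 in the clones (3.07 ± 0.35, SE). The least changed of the 5, ENSMUSR00000487825, went from 0.525 and 0.600 CPM to 4.02, 4.35 and 3.07 (2.81 ± 0.36, SE). In all 5 sites the 12 knockout libraries lay above the 7 controls, and the joint test did not separate the clones at any of them (adjusted p 0.654 to 0.924). The adjusted p of Zcchc8 KO against wild type lay between 5.01e-11 and 3.08e-08 (edgeR).

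The most abundant of the 8, ENSMUSR00000446201, already held 17 or more counts in every control library. Its levels were 3.81, 4.95 and 6 CPM in wild type and 4.13, 5, 2.1 and 3.56 in Btbd7 KO. Clone 1 gave 32.4, 32.9, 50.1 and 57.1 CPM, clone 2 35.7, 31.7, 24.7 and 30.2, and clone 3 25.2, 20.6, 26.2 and 24.4. The lowest knockout library was thus more than 3 times the highest control. The log2 fold change was 2.68 ± 0.17 (SE; adjusted p = 4.25e-24, edgeR). The clones also differed (joint test, adjusted p = 0.000216), with clone 1 above clone 3 by 0.84 ± 0.15 (SE) on the log2 scale.

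A second abundant site, ENSMUSR00000718368, was singled out after its values were seen, because with the previous one it made up the 2 sites of 100 or more counts called higher in each clone. It stood at 8.71, 6.57 and 7.81 CPM in wild type, 6.23, 6, 3.95 and 4.15 in Btbd7 KO, and 57.5 ± 13.7, 44.8 ± 5.67 and 36 ± 4.71 in clones 1, 2 and 3 (n = 4 each). The knockout libraries, from 31.2 to 70.1 CPM, lay above all controls. The change was 2.55 ± 0.15 (SE; adjusted p = 1.81e-26, edgeR). Here too the clones differed (joint test, adjusted p = 0.00125), with clone 1 above clone 3 by 0.68 ± 0.13 (SE) on the log2 scale. Both sites were compared with the 78851 other features and genes with a mean of 5 or more counts, by the SD of the log2 count ratio over the 19 libraries, a description added after the data were seen. The same row was nearest to both, the CTCF binding site ENSMUSR00000446206, of whose counts they held 28.8% (SD of the log2 ratio 0.144) and 41.7% (SD 0.16).

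The site called lower in each clone but not in Btbd7 KO was ENSMUSR00000585034. It stood at 9, 7.09 and 8.22 CPM in wild type and 9.88, 8.33, 8.14 and 8.55 in Btbd7 KO. Levels were 5.12, 4.22, 2.48 and 5.29 CPM in clone 1, 4.71, 6.26, 3.30 and 4.25 in clone 2, and 4.97, 4.51, 4.21 and 4.34 in clone 3. Every knockout library was below every control. The log2 fold change was -0.86 ± 0.18 (SE; adjusted p = 0.000354, edgeR), and the clones did not differ in the joint test (adjusted p = 0.985).

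**Figure D4:**
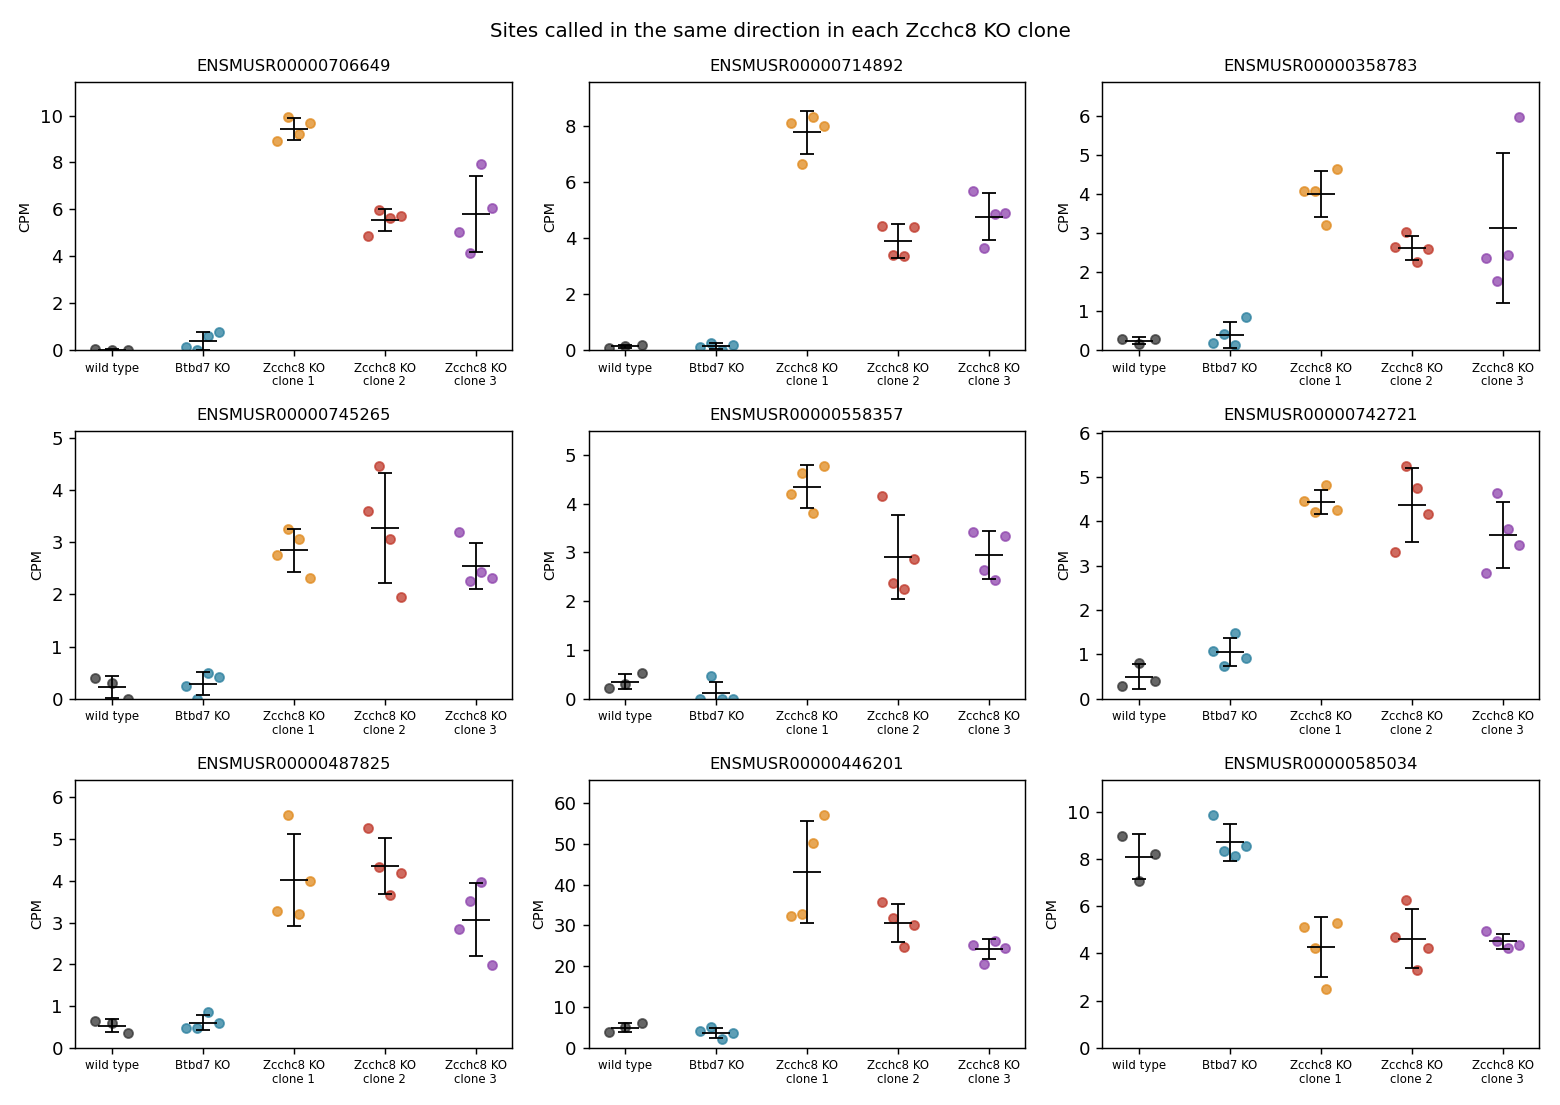
CPM of the 8 sites with the largest rise and the 1 site with a fall (y axes, from 0). All were called in each Zcchc8 KO clone but not in Btbd7 KO. Each panel has 1 point per library, the mean as a bar and the SD as whiskers for 5 groups (x axes). The 12 knockout libraries do not overlap the 7 control libraries in any panel.

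The 6 most abundant sites carried much RNA and changed little. ENSMUSR00000443938 alone took 3.28% to 9.28% of member counts in a library. It stood at 709, 506 and 290 CPM in wild type, 443 to 563 in Btbd7 KO and 371 to 848 in the clones, so that the wild-type libraries spanned most of the range of the others. The log2 fold change was 0.19 ± 0.12 (SE; adjusted p = 0.44, edgeR). Without wild-type replicate 2, the highest of the 3, it became 0.53 and was called (adjusted p = 0.00267). Its counts followed the PROMPT region of AY036118, of whose counts it held 73.1% (SD of the log2 ratio 0.05), the CTCF site ENSMUSR00000443939 (65.7%) and the gene Gm42418 (30%). AY036118 and Gm42418 are annotated at a locus known to carry ribosomal RNA sequence.

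Another 3 of the 6 were not called. ENSMUSR00000528957 stood at 318 ± 6.15 CPM in wild type (n = 3) and 299 ± 51, 327 ± 61.3 and 367 ± 89.5 in the clones (n = 4 each), a log2 fold change of 0.05 (adjusted p = 0.854, edgeR). Nearest to ENSMUSR00000685410 by counts was the gene Tmem106b, which encodes a lysosomal membrane protein. The site's count was 90.7% of that of Tmem106b, from 72.1% to 105% in single libraries. The SD of their log2 ratio, 0.143, was above the 0.04 given by counting error. ENSMUSR00000685410 changed by -0.11 (adjusted p = 0.68, edgeR). It was called at -0.34 without wild-type replicate 2 (adjusted p = 0.0278). ENSMUSR00000605658 held 88.7% of the count of Snx3, a sorting nexin gene of endosomes, and the SD of their log2 ratio, 0.036, was below the 0.05 given by counting error. It changed by -0.09 (adjusted p = 0.629, edgeR) and stayed between 83.5% and 92.5% of the Snx3 count in all 19 libraries.

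The remaining pair fell. ENSMUSR00000584985 stood at 144, 152 and 147 CPM in wild type and 130, 135, 132 and 134 in Btbd7 KO. Clone 1 gave 103, 107, 87.9 and 104 CPM, clone 2 116, 106, 115 and 118, and clone 3 133, 128, 122 and 137. Clones 1 and 2 lay below all controls, and clone 3 overlapped Btbd7 KO. The log2 fold change was -0.37 ± 0.08 (SE; adjusted p = 0.000315, edgeR), and the clones differed (adjusted p = 0.0171). This site held 56.7% of the count of the PROMPT region of Gm2366 and 12.1% of that of Fat1, which encodes a giant cadherin.

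ENSMUSR00000689154, with 78.6% of the count of Ranbp1, a Ran GTPase regulator gene of nuclear transport, stood at 117, 138 and 142 CPM in wild type and 132 to 157 in Btbd7 KO. It gave 92.5 to 103 CPM in clone 1, 99.4 to 124 in clone 2 and 102 to 119 in clone 3. Clone 2 and clone 3 each had a library above the lowest wild-type value. The log2 fold change was -0.34 ± 0.08 (SE; adjusted p = 0.00259, edgeR), and it was not called without wild-type replicate 4 (-0.28, adjusted p = 0.0632).

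The clones differed among themselves mainly at abundant sites, where precision was highest. A joint test with 2 degrees of freedom called 80 sites (3.21% of those tested), 78 of them members. These were 10, 18, 23 and 27 members from the lowest to the highest class, or 1.17%, 2.13%, 5.93% and 13.2% of those tested. Without clone 2 replicate 2 the test called 50 sites in all, and without clone 3 replicate 4 it called 51. The median distance between the highest and the lowest clone at the 78 members was 1.13 on the log2 scale of mean CPM plus 0.05. Only 16 of the 78 were also called in the mean of the clones against wild type.

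Clone 2 was the one farther from the middle clone at 37 of the 78 sites, clone 1 at 22 and clone 3 at 19. In pairs, clone 1 exceeded clone 2 at 24 sites (0.962%) and was below it at 17 (0.682%). Clone 1 exceeded clone 3 at 11 (0.441%) and was below it at 6 (0.241%). Clone 2 exceeded clone 3 at 18 (0.722%) and was below it at 25 (1%). Fewest sites separated clones 1 and 3.

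The 4 sites with the lowest joint p were named for that difference, which is given as a description. ENSMUSR00000597384 stood at 4.90, 6.21 and 6.53 CPM in wild type, 1.38, 0.867, 2.10 and 1.44 in Btbd7 KO, and 14.8, 9.35, 12.2 and 9.54 in clone 2. Clones 1 and 3 gave 2.86 to 4.53 and 2.13 to 4.14 CPM. Clone 2 thus lay above wild type, and clones 1 and 3 and Btbd7 KO lay below it (joint test, adjusted p = 4.43e-10, edgeR). The site held 64.6% of the count of the gene Odf3l1.

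ENSMUSR00000485160 was low in clone 2 alone. It stood at 25.9, 25.7, 27.3 and 27.4 CPM there, and at 43.6, 40.2 and 37.7 in wild type, 35.3 to 39.5 in Btbd7 KO, 46.9 to 49 in clone 1 and 43.6 to 51.3 in clone 3. The clones differed with an adjusted p of 1.7e-09 (edgeR, joint test). Its count was 33.5% of that of Erfe, which encodes the hormone erythroferrone, with an SD of the log2 ratio of 0.077 against 0.082 from counting error.

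ENSMUSR00000700582 was raised in clones 1 and 3 and not in clone 2. It gave 21.9, 22.0, 27.7 and 30.8 CPM in clone 1 and 23.8, 21.1, 20.2 and 20.3 in clone 3, against 9.42, 10.7, 10.0 and 11.6 in clone 2. The controls stood at 6.81, 9.97 and 10.4 CPM in wild type and 7.27 to 10.6 in Btbd7 KO. Clone 2 therefore overlapped the controls, and its log2 fold change was 0.22 ± 0.17 (SE; adjusted p = 0.621, edgeR), whereas those of clones 1 and 3 were 1.5 ± 0.17 and 1.24 ± 0.17 (SE). ENSMUSR00000580584, the fourth, was again lowest in clone 2, at 58.8 to 66 CPM against 95.9 to 111 in clone 1, 60.4 to 84.5 in clone 3 and 78.8 to 96.2 in the controls.

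**Figure D5:**
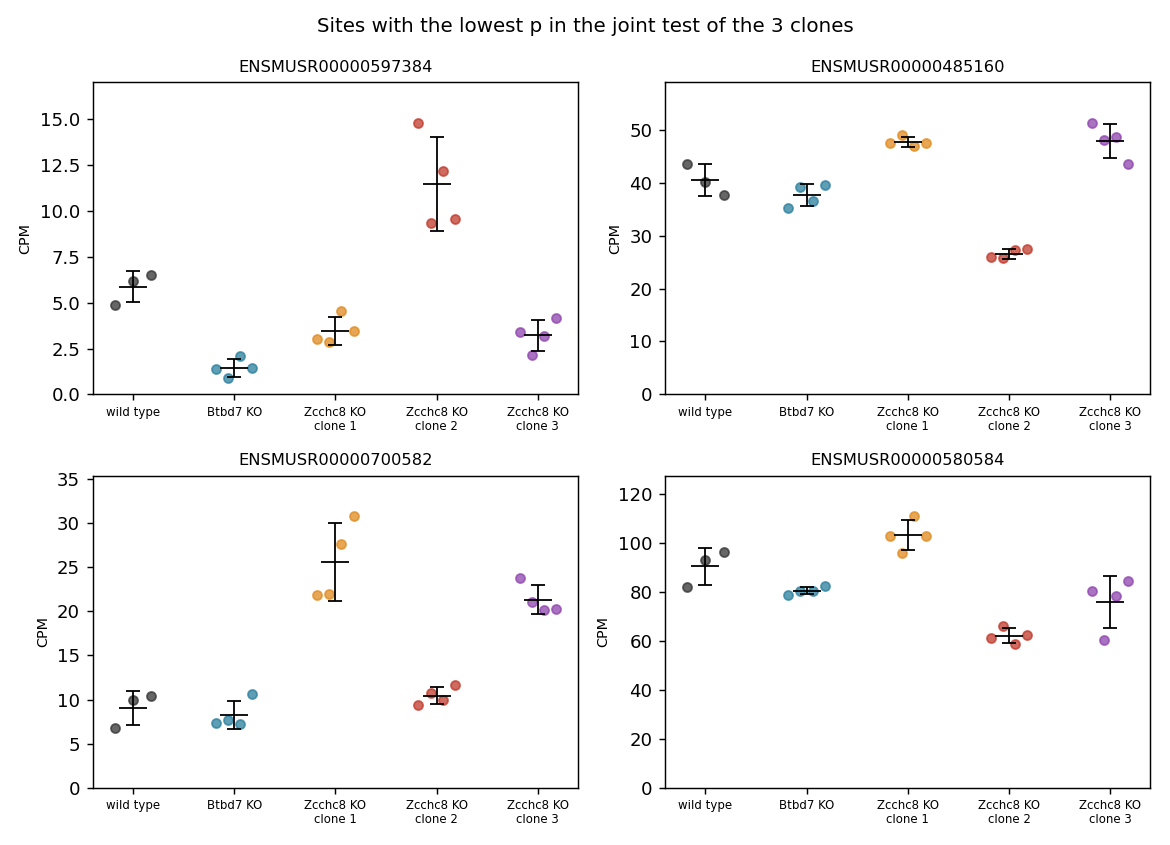
CPM of the 4 sites with the lowest p in the joint test of the clones (y axes, from 0), with 1 point per library, the mean as a bar and the SD as whiskers for 5 groups (x axes). Clone 2 differs from clones 1 and 3 in ENSMUSR00000597384, ENSMUSR00000485160 and ENSMUSR00000700582, without overlap.

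Of the 5 sites called in Btbd7 KO, 3 were lower than in wild type. ENSMUSR00000597384 changed most (-2.07 ± 0.27, SE; adjusted p = 5.44e-08, edgeR). ENSMUSR00000392633 went from 52.7, 49.2 and 51.6 CPM in wild type to 28.3, 33.6, 26.4 and 33.6 in Btbd7 KO (-0.74 ± 0.12, SE), without overlap. ENSMUSR00000186282, with 19.8% of the count of Nptxr, a neuronal pentraxin receptor gene, went from 22.4, 31.4 and 31.1 CPM to 17.4, 15.1, 14.9 and 16.1 (-0.83 ± 0.14, SE). None of these 3 was called in the mean of the Zcchc8 KO clones (adjusted p 0.155 to 0.712, edgeR), but 2 were called in single clones. ENSMUSR00000186282 was lower than wild type in clone 3, at 17 to 19.5 CPM (-0.62 ± 0.14, SE; adjusted p = 0.00117, edgeR). ENSMUSR00000597384 was higher in clone 2 (0.95 ± 0.23, SE; adjusted p = 0.0039) and lower in clone 3 (-0.83 ± 0.25, SE; adjusted p = 0.025, edgeR).

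Both sites higher in Btbd7 KO were named after their values were seen. ENSMUSR00000703726 stood at 3.20 ± 0.286 CPM in wild type (n = 3), 9.24 ± 1.38 in Btbd7 KO (n = 4) and 3.18, 2.59 and 3.21 in the clones. ENSMUSR00000618321 stood at 56.6, 59.8 and 60.1 CPM in wild type and 82.4, 83.3, 93.2 and 83.9 in Btbd7 KO, and was lower than wild type in the clones, whose means were 36.5, 36.7 and 43.8. The changes were 0.54 ± 0.11 in Btbd7 KO and -0.60 ± 0.09 in Zcchc8 KO (SE; adjusted p = 0.00339 and 5.87e-07, edgeR). This site was also called lower in each clone (-0.69, -0.68 and -0.42, adjusted p at most 0.00856, edgeR). Its call in Btbd7 KO kept it out of the sites called only in the clones. It held 19.8% of the count of Sparc, which encodes a secreted matrix glycoprotein.

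Some sites had the same or nearly the same counts as CTCF binding sites. ENSMUSR00000578279 had the same count as the CTCF site ENSMUSR00000578280 in each of the 19 libraries, with a mean of 162.3. It was the only 1 of 824 members with 20 or more counts to match a row of another class exactly. Close to identical pairs were more frequent. Among 193 pairs of such a member and a CTCF site whose identifier number differs by 1, 46 (23.8%) kept a log2 ratio with an SD less than the counting SD divided by 2. The site held 71% to 130% of the CTCF site's count in these pairs, with a median of 96.3%.

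No such pair was found with an enhancer, open chromatin region, promoter flanking region or promoter at an identifier step of 1 (0 of 102, 88, 69 and 8 pairs). With CTCF sites at a step of 2 there were 2 of 107 pairs, and at steps of 3 and 10 there were 0 of 79 and of 41. The 46 pairs involved 45 sites, 5.46% of the 824. ENSMUSR00000392633, lower in Btbd7 KO, was among them, with 89.4% of the count of ENSMUSR00000392634. So was ENSMUSR00000358783, which held 103% of the count of ENSMUSR00000358782. Of the 56 sites of this size called higher in Zcchc8 KO, 3 were in such pairs, and of the 29 called lower, 1 was.

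Other regulatory classes were set beside the sites under the same limit of 5 counts and the same gene scaling. The sites' median log2 fold change in the mean of the clones was 0.07, against 0.09 for 9024 enhancers, 0.07 for 7485 open chromatin regions and 0.12 for 4512 promoters. The share called higher was 5.94% for the sites, 7.44% for enhancers, 4.83% for open chromatin regions and 13.8% for promoters, whose median count of 29.7 was above the 13.6 of the tested sites. The share called lower was 1.57% for the sites, 1.96% for enhancers, 1.31% for open chromatin regions and 3.96% for promoters. These differences between classes were not tested.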

How the data were processed

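The authors deposited 9 tables of unnormalized whole-number read counts, 1 of them for transcription factor binding sites. Reads were checked with FastQC and aligned with STAR 2.7.3a, as far as the submitters' processing notes name tools. The read counter, build, strandedness of counting and the rule for reads shared between features are not given in the sources used here. RNA was total RNA prepared with a stranded kit, per the labels' protocols. The site table holds 19 libraries, without wild-type replicate 1, which is in the gene table with 20 libraries.

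Groups came from the sample titles. Counts were fitted once over all 5 groups with edgeR 4.0.16 (R 4.3.3; glmQLFit and glmQLFTest) after filterByExpr by group, with library sizes and TMM factors of the 19 libraries in the gene table and Benjamini-Hochberg adjustment over all sites tested. Standard errors were derived from each quasi-likelihood test. The contrasts were the mean of the clones, each clone and Btbd7 KO against wild type, the mean of the clones against Btbd7 KO, pairs of clones, and a joint test of the clones. The scripts were tested on simulated data. Within a group, libraries differed beyond sampling noise, with a chi-square over its degrees of freedom of 2.33 to 8.04, and each was treated as a replicate. Pairs of wild-type libraries gave 4.2 to 8.04, and pairs within the other groups at most 3.72. The fit used 1 estimate of the spread shared by the 5 groups. CPM were computed from the deposited counts. Ratios of low counts carry exact 95% intervals. Depth limits precision most below 10 counts per site.

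The members, gene lists and naming rule were chosen with earlier results of these data known. Named were the 8 largest rises and up to 5 falls called in the mean and in each clone, not called in Btbd7 KO and with a mean of 20 or more counts; the 6 most abundant members; those of 20 or more counts with the lowest p, 4 in the joint test and 3 in Btbd7 KO; 2 on each side of the membership limit; and exact matches to another row. Likeness to other rows used log2 count ratios with a pseudocount of 0.5. A percentage of another row's count gives relative size only and does not place the site in that row. Alternatives were DESeq2 1.42.0, 3 other filters, 2 other scalings, thinning, a replicate block, only the groups compared, classes by Btbd7 KO level, rows chosen by the Btbd7 KO libraries alone, members with 5 counts in both sets, and leaving out each library.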

Additional observations from a re-analysis of the deposited data

Results flagged for a closer look

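Of 112 groups of 4 libraries checked, 5 held a library set apart, its gap to the nearest other library, divided by the group's range, being over Dixon's 95% critical value. Chance alone gives about 1 in 20 groups. Wild type, with 3 libraries, was not checked in this way. Clone 3 replicate 4 stood at 5.97 CPM at ENSMUSR00000358783 against 1.76 to 2.43 in the others (gap ratio 0.841). Btbd7 KO replicate 2 stood at 0.467 CPM at ENSMUSR00000558357, where the others were at 0 (ratio 1), and Btbd7 KO replicate 4 at 10.6 CPM at ENSMUSR00000700582 against 7.27 to 7.73 (0.861). Clone 2 replicate 2 stood at 47.6 CPM at ENSMUSR00000392633 against 62.7 to 64.5 (0.89), and clone 1 replicate 3 at 29.2 CPM at ENSMUSR00000186282 against 23.1 to 23.7 (0.894). These 5 libraries came from 4 groups and no library was set apart at more than 1 site.

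The change from wild type differed between the 3 clones at 9 of the sites named by rule, by edgeR's joint test with Benjamini-Hochberg adjustment. The adjusted p was 4.43e-10 at ENSMUSR00000597384, 1.7e-09 at both ENSMUSR00000485160 and ENSMUSR00000700582, and 1.21e-07 at ENSMUSR00000580584, which were named for this test. It was 0.000216 at ENSMUSR00000446201 and 0.0274 at ENSMUSR00000714892, both higher in every clone, and 0.0171 at ENSMUSR00000584985, lower in the mean. At ENSMUSR00000392633 and ENSMUSR00000186282, named for Btbd7 KO, it was 0.00171 and 0.00461. For ENSMUSR00000718368, singled out after its values were seen, it was 0.00125.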

How the results depend on the processing

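Counts of calls moved with the filter, the thinning and the scaling. Sites called higher in the mean of the clones fell from 149 to 98 with a mean of 10 or more counts and to 84 after thinning, where 1452 sites were tested. Sites called lower went from 36 to 67 with scaling within the site table and to 22 after thinning. Thinning took clone 3 from 149 to 94 calls. Leaving out 1 library gave 118 to 150 higher and 21 to 37 lower. Clones 1, 2 and 3 had 142 to 174, 106 to 139 and 111 to 158 calls under these, and the comparison with Btbd7 KO 198 to 316. The joint test went from 80 to between 50 and 92. In Btbd7 KO, the 5 calls became 19 with DESeq2, 11 with a mean of 10 or more counts, 8 with scaling within the site table, 12 with only the groups compared, and 5 to 13 without 1 library. The same 5 sites were called in each of these. The causes were not tested beyond the fewer sites or libraries entering a fit. Ranking by Btbd7 KO level moved the class medians to 0.245 in the lowest and -0.07 in the highest class. Rows chosen by the Btbd7 KO libraries alone gave 0.157 and -0.07 there, and members with 5 counts in both sets 0.154 in the lowest, both added after the data were seen. Members called higher went from 136 to 77 where a mean of 5 counts was asked of both sets of libraries, added after the data were seen. The replicate numbers did not pair the libraries (median correlation of same-numbered libraries 0.007), and with the number as a replicate block 138 sites were higher, 32 lower and 77 differed between clones. The 9 sites named for a call in each clone were called in the mean of the clones in all 225 alternative fits of that contrast, with an adjusted p of at most 0.0131 (edgeR, or DESeq2 in its fits). These 9 were picked for their calls in the same libraries, so the fits show only that no single setting or library made the calls. Of the 8 rises among them, 5 had a mean under 5 counts in the controls.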
